A study of Mus musculus with 8 samples.

Results

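Transcripts of 10 antioxidant genes were followed through mouse embryonic fibroblasts of 4 genotypes: Sod1, Sod2, Prdx3, Txn2, Txnrd2, Gpx1, Gsr, Idh2, Nqo1 and Hmox1. They were chosen by name, as genes of the mitochondrial antioxidant system and of the NRF2 response, from a table of 24972 genes. All 10 had a mean of at least 10 normalized counts and were among the 13267 genes tested. The cells were untreated primary fibroblasts grown from embryos of embryonic day 14 and passaged before RNA was taken. The groups were wild type (WT), Tfam+/- (1 allele of Tfam lost), Zbp1-/- (no functional Zbp1 allele) and Tfam+/-Zbp1-/- (both genotypes together), with 2 libraries each. Tfam encodes the transcription and packaging factor of the mitochondrial genome, and Zbp1 a sensor of nucleic acids. The sources used here do not say how the alleles were made or whether both libraries of a genotype stem from different embryos, so p-values measure the spread between these libraries, which may be technical.

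Electrons that leak from the respiratory chain turn oxygen into superoxide. Superoxide dismutases convert it to hydrogen peroxide, which peroxiredoxins and glutathione peroxidases reduce to water at the expense of thioredoxin and glutathione, both of which are recharged with NADPH. The transcription factor NRF2, encoded by Nfe2l2 and held back by Keap1, binds antioxidant response elements and drives genes of this defence, of which Nqo1 and Hmox1 are the textbook examples.

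Nqo1 was the member whose level separated 1 genotype most clearly, being highest in both Tfam+/-Zbp1-/- libraries. Its rise in Tfam+/-Zbp1-/- over Tfam+/- was the only change of a member that passed the threshold when all 8 libraries were fitted with no further term. The call was narrow (limma, adjusted p 0.0462) and was lost under another scaling of the libraries and after correction for GC content. That correction also recentred each library. Idh2 was higher, and Gsr lower, in Zbp1-/- than in WT in both libraries of each genotype, and in Tfam+/-Zbp1-/- Idh2 was again above WT while Gsr was next to WT. The differences of Idh2 and Gsr were not called with all 8 libraries fitted together. A pattern, described below, cuts across the genotypes, and 2 further fits allow for it. Gsr in Zbp1-/- and Idh2 in Tfam+/-Zbp1-/-, each against WT, were called in both of these fits. Idh2 in Zbp1-/- against WT was called with a term for the pattern but not after correction for GC content. Gsr in Tfam+/-Zbp1-/- against WT was called in neither. When only Tfam+/-Zbp1-/- and WT were fitted, Idh2 was also called, as were Txn2, Gpx1 and Nqo1 and 5935 of all 13267 genes tested. Sod1, Txn2, Txnrd2, Gpx1 and Hmox1 were highest in the same 2 libraries of different genotypes.

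Library totals were 16752835 to 18303036 normalized counts. All 4 libraries labelled with the Tfam+/- allele had less Tfam (278 to 424 normalized counts) than the other 4 (471 to 675). Zbp1 was at 64.6 and 69.8 in Tfam+/- and at 0.86 to 7.34 in the other 6 libraries, too low in WT to check the Zbp1-/- label. Summed over 9 fibroblast markers, levels were 334000 to 550400 in single libraries. All 5 erythroid markers together never passed 4.92, with Hbb-bt and Hbb-bs listed at 0 in all 8 libraries. The sums of 5 epithelial, 4 endothelial, 5 muscle and 5 neural markers ranged over 184.7 to 490.4, 233.0 to 386.0, 363.4 to 917.9 and 661.8 to 1533. The sum of 10 macrophage and leukocyte markers was 4651 to 4732 for WT, 5482 to 5929 for Tfam+/-, 2647 to 2969 for Zbp1-/-, then 2405 to 2428 for Tfam+/-Zbp1-/-. Fewer cells of a type and less RNA per cell cannot be told apart in such bulk samples.

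Tfam+/- replicate 1 and Zbp1-/- replicate 2 stood apart from the rest. Of the genes tested, 65.3% were called for a log2 term common to this pair. Its size followed the GC content of the transcripts. Across 12733 genes with an annotated coding transcript, the term correlated with GC content at r = 0.78 (all genes share the same 8 libraries, so this is a description), with a median of -0.61 on the log2 scale in the lowest quartile of GC content and 0.36 in the highest. The correlation with log2 transcript length was -0.33. In these 2 libraries GC content accounted for 37.0% and 48.6% of the variance of the deviations from each gene's mean, against 5.6% to 22.9% in the other 6.

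The 10 genes divided by GC content in the same way. Sod1, Hmox1, Txn2, Txnrd2, Idh2 and Gpx1, whose longest coding transcripts have 53.2% to 57.2% GC, had shared terms of 0.33 to 0.48, all past the threshold (limma, adjusted p 3.81e-09 to 0.00283). Sod2, Prdx3, Nqo1 and Gsr, with 42.2% to 50.1% GC, had terms of -0.27 to -0.02, of which only that of Prdx3 passed (-0.27 ± 0.04 SE, adjusted p 2.59e-05). Of the 10 genes, 5 (Sod1, Txn2, Txnrd2, Gpx1 and Hmox1) were higher in both of these libraries than in each of the other 6, as were 21.5% of all genes tested, and 2 (Sod2 and Prdx3) were lower, as were 27.5%. The part of GC content in the shift was not tested. Beside the fit of all 8 libraries, changes are therefore given from a fit with the shared term and from values whose dependence on GC content had been subtracted in each library. Both were chosen after seeing the data. The subtraction also recentred each library: the median change of all genes in Tfam+/-Zbp1-/- went from 0.121 to 0.005 against WT. Against Tfam+/- it went from 0.143 to 0.009. Effects of scaling and of GC content are therefore not separated in the corrected values. GC correction removed part of the pattern: over all genes with a GC content, the correlation of replicate differences between Tfam+/- and Zbp1-/- went from -0.695 to -0.322. For Sod2 the order turned over: the pair was lowest before correction (733 and 725 normalized counts) and highest after it (1035 and 965, against 690 to 756 in the other 6 libraries).

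**Figure D1:**
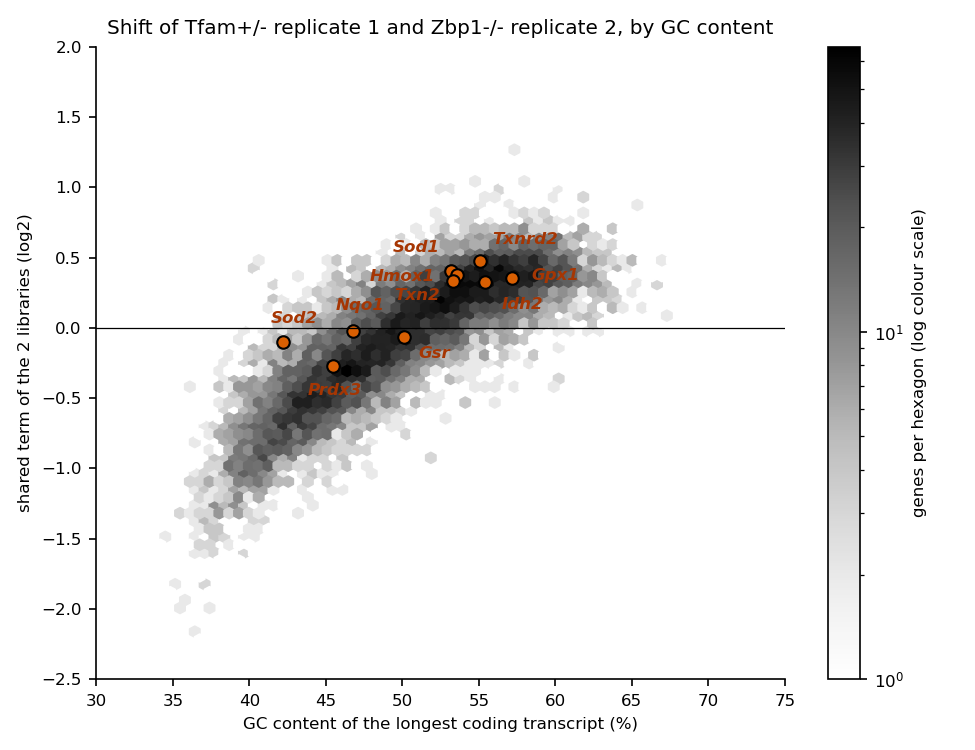
Shared log2 term of Tfam+/- replicate 1 and Zbp1-/- replicate 2 (vertical axis) against the GC content of each gene's longest coding transcript (horizontal axis, percent) for 12733 genes, with darker hexagons holding more genes. The 6 members above 53% GC lie at 0.33 to 0.48 and the other 4 at or below -0.02.

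With an adjusted p (Benjamini-Hochberg) under 0.05 as the threshold, limma called 0 of 10 members in Tfam+/- against WT (0.731% of all genes tested were called), 0 in Zbp1-/- against WT (1.06%), 0 in Tfam+/-Zbp1-/- against WT (1.38%), 1 in Tfam+/-Zbp1-/- against Tfam+/- (5.64%), 0 in Tfam+/-Zbp1-/- against Zbp1-/- (0.415%) and 0 for the interaction (0.663%). The interaction asks whether Tfam+/- acts alike with and without Zbp1: its effect on the Zbp1-/- background less its effect on the WT background. At an unadjusted p under 0.05 the counts were 0, 2, 2, 2, 2 and 3 of 10, beside 8.74%, 19.7%, 12.6%, 20.8%, 12.3% and 16% of all genes. They fell on Nqo1, Idh2, Gsr and Hmox1 alone. With the shared term the counts of members called were 1, 4, 4, 5, 5 and 4, beside 15.6%, 35.6%, 42.5%, 45.6%, 23.8% and 16.9% of all genes. After GC correction they were 0, 1, 2, 2, 2 and 2, beside 3.75%, 8.15%, 7.54%, 17.9%, 7.69% and 6.37%. In the 6 libraries that remain without the pair, they were 0, 5, 4, 5, 4 and 4, beside 15.4%, 34.3%, 44.8%, 43.6%, 23.4% and 19.1%. With the shared term, the members' share was near that of all genes in the first 4 tests and above it in Tfam+/-Zbp1-/- against Zbp1-/- and for the interaction. The libraries of the groups compared did not overlap for 7, 8, 7, 6 and 4 of the 10 genes in the 5 comparisons, beside 48.8%, 58.9%, 72.9%, 55.9% and 49.5% of all genes. Comparisons that share a genotype share its libraries and are not separate evidence. The median log2 change over the 10 genes was 0.16, 0.23, 0.12, 0.10 and 0.07 in the 5 comparisons and -0.07 for the interaction, beside -0.01, 0.11, 0.12, 0.14, 0.02 and 0.00 over all genes tested.

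**Figure D2:**
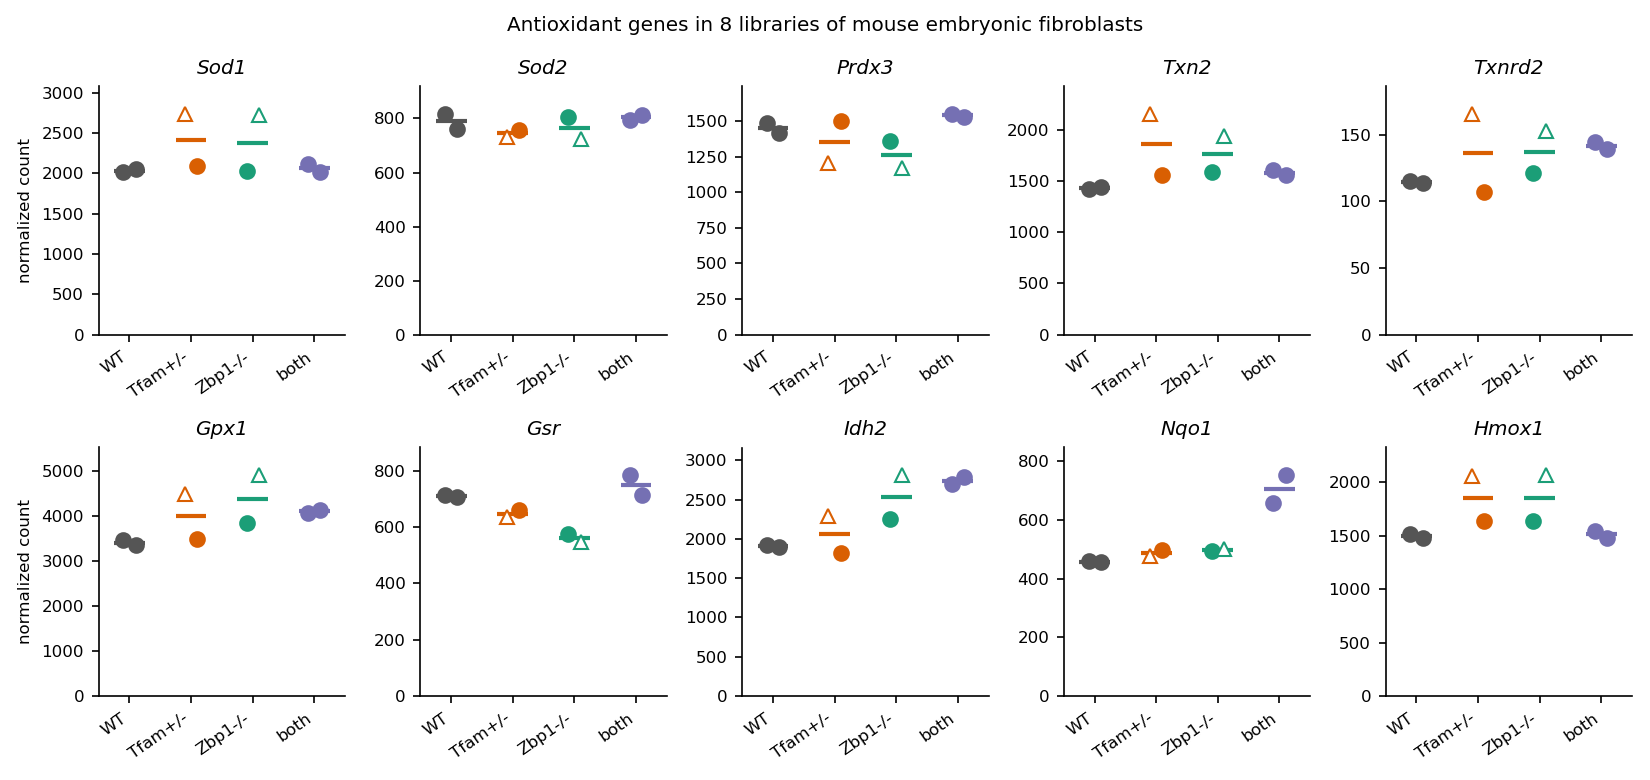
Normalized counts (vertical axis, from 0) of the 10 genes in each library, by genotype, with "both" for Tfam+/-Zbp1-/- and a bar at the mean of the 2 libraries. Open triangles are Tfam+/- replicate 1 and Zbp1-/- replicate 2, which are the highest points for Sod1, Txn2, Txnrd2, Gpx1 and Hmox1, whereas Nqo1 is highest in both Tfam+/-Zbp1-/- libraries.

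Superoxide is handled by Sod1, the copper-zinc dismutase of the cytosol and the mitochondrial intermembrane space, and Sod2, the manganese dismutase of the matrix. Sod1 (chromosome 16, 90220762 to 90226333, GRCm38.p6, the assembly also called mm10) had 2016 and 2048 normalized counts in WT libraries, 2741 and 2095 for Tfam+/-, 2031 and 2727 for Zbp1-/-, then 2117 and 2016 for Tfam+/-Zbp1-/-. Without the 2 libraries that stand apart, the other 6 lay within 2016 to 2117. Tfam+/- differed from WT by 0.24 ± 0.18 on the log2 scale (SE, adjusted p 0.562), and by 0.04 ± 0.04 with the shared term (adjusted p 0.643). Sod2 (chromosome 17, 13007839 to 13018119) had 818 and 761 normalized counts in WT libraries, 733 and 758 for Tfam+/-, 806 and 725 for Zbp1-/-, then 796 and 812 for Tfam+/-Zbp1-/-. Its 4 genotype means lay within 0.11 of each other on the log2 scale, and its lowest adjusted p over the 6 tests was 0.514 with all 8 libraries. A change was therefore not detectable for either dismutase gene in any fit, which does not show that levels were equal.

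The mitochondrial peroxiredoxin system consists of Prdx3, which reduces hydrogen peroxide in the matrix, Txn2, the thioredoxin that reduces Prdx3, and Txnrd2, the selenium-containing reductase that recharges Txn2 with NADPH. Prdx3 (chromosome 19, 60864066 to 60874538) had 1489.5 and 1418 normalized counts in WT libraries, 1204 and 1504 for Tfam+/-, 1359 and 1169.9 for Zbp1-/-, then 1554 and 1532 for Tfam+/-Zbp1-/-. Both Tfam+/-Zbp1-/- libraries were above the other 6, by a narrow margin. The log2 change from Zbp1-/- to Tfam+/-Zbp1-/- was 0.29 ± 0.14 (SE, adjusted p 0.466), called with the shared term (0.16 ± 0.05, adjusted p 0.0256) and not after GC correction (0.13 ± 0.06, adjusted p 0.272).

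Txn2 (chromosome 15, 77915051 to 77928994) had 1421 and 1435 normalized counts in WT libraries, 2155 and 1559.7 for Tfam+/-, 1583 and 1935 for Zbp1-/-, then 1601 and 1555 for Tfam+/-Zbp1-/-. The WT libraries were the lowest, and the 6 others did not overlap them, but this did not hold after GC correction. Corrected values were 1556 and 1579 in WT, 1555 in Zbp1-/- replicate 1 and 1549 in Tfam+/-Zbp1-/- replicate 2. The share of all genes that were lowest in WT was not counted. In Tfam+/- against WT the log2 change of Txn2 was 0.36 ± 0.17 (SE, adjusted p 0.559). The shared term reduced this to 0.17 ± 0.05 and it was called (adjusted p 0.0217), but GC correction gave 0.23 ± 0.08 and no call (adjusted p 0.194). Txnrd2 (chromosome 16, 18426417 to 18479073) had 115 and 114 normalized counts in WT libraries, 166 and 107 for Tfam+/-, 121 and 152 for Zbp1-/-, then 144 and 139 for Tfam+/-Zbp1-/-. It was called in 0 of 6 tests in each of these 3 fits. In the 6 libraries without the pair, its log2 change from Tfam+/- to Tfam+/-Zbp1-/- was 0.40, with replicate 2 alone for Tfam+/-.

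Glutathione carries the other route of peroxide removal. Gpx1 encodes a selenium-dependent glutathione peroxidase of cytosol and mitochondria, and Gsr the reductase that regenerates glutathione in both compartments. Gpx1 (chromosome 9, 108339080 to 108340342) had 3464 and 3367 normalized counts in WT libraries, 4492 and 3503 for Tfam+/-, 3842 and 4916 for Zbp1-/-, then 4074 and 4139.9 for Tfam+/-Zbp1-/-. Both WT libraries were below the other 6, but not after GC correction. Corrected values of Gpx1 were 3897 and 3804 in WT, beside 3774 and 3882.5 in Zbp1-/-. The share of all genes with WT below the rest was not counted. Zbp1-/- differed from WT on the log2 scale by 0.35 ± 0.16 (SE, adjusted p 0.281) with all 8 libraries, 0.17 ± 0.03 with the shared term (adjusted p 0.000628) and -0.01 ± 0.05 after GC correction (adjusted p 0.933). In Tfam+/-Zbp1-/- against WT the 3 values were 0.27, 0.27 (adjusted p 1.18e-06) and 0.11, of which only the value with the shared term was called.

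Gsr (chromosome 8, 33653238 to 33698162) had 714 and 707 normalized counts in WT libraries, 634 and 659.7 for Tfam+/-, 576 and 546 for Zbp1-/-, then 784 and 715 for Tfam+/-Zbp1-/-. The 2 Zbp1-/- libraries were the lowest, the 2 Tfam+/- libraries came next, and WT and Tfam+/-Zbp1-/- were highest and next to each other (714 and 715). In Zbp1-/- against WT its log2 change was -0.34 ± 0.11 (SE), or 0.79 times the WT level, with an adjusted p of 0.173. It was called with the shared term (-0.31 ± 0.07, adjusted p 0.00139) and after GC correction (-0.48 ± 0.08, adjusted p 0.00995). From Zbp1-/- to Tfam+/-Zbp1-/- the 3 values were 0.42 ± 0.11 (adjusted p 0.188), 0.38 ± 0.07 (0.000267) and 0.43 ± 0.08 (0.0153). In Tfam+/- against WT the change was -0.14 ± 0.11 (adjusted p 0.566), also not called in the other 2 fits (adjusted p 0.346 and 0.315). The interaction was 0.55 ± 0.15 (adjusted p 0.184), 0.49 ± 0.10 with the shared term (adjusted p 0.00242) and 0.59 ± 0.11 after GC correction (adjusted p 0.0192). With the shared term an interaction, of this or any other gene, rests on the other 6 libraries. Tfam+/- is then represented by replicate 2 alone and Zbp1-/- by replicate 1 alone.

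NADPH for both routes comes in the matrix from Idh2, the NADP-dependent isocitrate dehydrogenase, and from the transhydrogenase encoded by Nnt. Idh2 (chromosome 7, 80094845 to 80118608) had 1923 and 1895 normalized counts in WT libraries, 2289.7 and 1823 for Tfam+/-, 2247 and 2811 for Zbp1-/-, then 2701 and 2781 for Tfam+/-Zbp1-/-. Among the 4 libraries with Zbp1 the highest value was Tfam+/- replicate 1, and it passed 1 of the 4 libraries without Zbp1. In Tfam+/-Zbp1-/- against WT the log2 change was 0.52 ± 0.15 (SE), or 1.44 times the WT level (adjusted p 0.203). It was called with the shared term (0.52 ± 0.04, adjusted p 1.2e-09) and after GC correction (0.38 ± 0.05, adjusted p 0.00412). Against Tfam+/- the values were 0.42 ± 0.15 (adjusted p 0.181), 0.59 ± 0.04 (6.45e-10) and 0.44 ± 0.05 (0.000934). In Zbp1-/- against WT Idh2 differed by 0.40 ± 0.15 (adjusted p 0.230), by 0.23 ± 0.04 with the shared term (adjusted p 0.000131) and by 0.08 ± 0.05 after GC correction (adjusted p 0.368). Against Zbp1-/-, Tfam+/-Zbp1-/- differed by 0.12 ± 0.15 (adjusted p 0.696), with 0.29 ± 0.04 (1.89e-05) and 0.30 ± 0.05 (0.0147) in the other 2 fits. The interaction was 0.03 ± 0.22 with all 8 libraries (adjusted p 0.939), and it was called with the shared term (0.35 ± 0.06, adjusted p 0.000345) and after GC correction (0.36 ± 0.07, adjusted p 0.0277). With all other libraries but without Zbp1-/- replicate 1, the difference from Zbp1-/- was -0.04 and the interaction -0.14, and the interaction was also -0.14 without Tfam+/- replicate 2.

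Nnt (chromosome 13, 119335527 to 119409257) had 947 and 928 normalized counts in WT libraries, 808 and 971 for Tfam+/-, 2070.1 and 1961 for Zbp1-/-, then 1396 and 1472 for Tfam+/-Zbp1-/-. The 4 libraries without Zbp1 were above the other 4, with Zbp1-/- highest. Nnt rose in Zbp1-/- against WT by a log2 change of 1.10 ± 0.12 (SE, adjusted p 0.0183) and in Tfam+/-Zbp1-/- against Tfam+/- by 0.69 ± 0.12 (adjusted p 0.0224). Without single libraries the former stayed at 1.06 to 1.14, but the call was lost without either library of WT (adjusted p 0.223 and 0.231), Zbp1-/- or Tfam+/-Zbp1-/-. The latter ranged over 0.56 to 0.83, and its call was lost without either library of WT or Tfam+/-Zbp1-/- or without Tfam+/- replicate 1. Summed fibroblast markers were also highest in Zbp1-/- (468000 to 550400, against 382400 to 382600 in WT). With all 8 libraries 1 of 9, Pdgfra, was called higher in Zbp1-/- than in WT (1.06% of all genes were called in either direction). With the shared term 8 of 9 were called higher, beside 28.5% of all genes. Neither the part of the fibroblast markers nor that of genetic background in the differences of Nnt, Idh2 and Gsr was tested.

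Nqo1 encodes a quinone reductase and Hmox1 the haem oxygenase that breaks haem down to biliverdin, iron and carbon monoxide. Both are NRF2 targets in the textbooks. Nqo1 (chromosome 8, 107388225 to 107403205) had 459.8 and 456 normalized counts in WT libraries, 477 and 498 for Tfam+/-, 494 and 500.2 for Zbp1-/-, then 656 and 753 for Tfam+/-Zbp1-/-. The 2 Tfam+/-Zbp1-/- libraries were above all others, which lay within 456 to 500.2. Means were 458 ± 2.56 (SD, n = 2) in WT, 488 ± 14.5 in Tfam+/-, 497 ± 4.06 in Zbp1-/- and 705 ± 68.2 in Tfam+/-Zbp1-/-. Of the 10 genes, 3 (Nqo1, Gsr and Prdx3) were higher in both Tfam+/-Zbp1-/- libraries than in each of the other 6, as were 14.9% of all genes tested. For Gsr and Prdx3 the margin was 714 to 715 and 1504 to 1532.

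Nqo1 rose in Tfam+/-Zbp1-/- against Tfam+/- by a log2 change of 0.53 ± 0.11 (SE), 1.44-fold, with an adjusted p of 0.0462. The median change of all genes was 0.14 in this comparison, and TMM scaling (trimmed mean of M-values) moved it to 0.02. Nqo1 then differed by 0.41 and was no longer called (adjusted p 0.105). The same scaling moved the median of all genes against WT from 0.12 to 0.01 for Tfam+/-Zbp1-/- and from 0.11 to 0.00 for Zbp1-/-. The call was also lost without any 1 of the 8 libraries, at 0.43 to 0.63 (adjusted p 0.0541 to 0.368). It held with the shared term (0.52 ± 0.08, adjusted p 3.18e-05) and was lost after GC correction (0.32 ± 0.11, adjusted p 0.0915). GC correction also moved the median of all genes in this comparison, to 0.01. Against WT the log2 change of Nqo1 was 0.62 ± 0.11 (adjusted p 0.0596), called with the shared term (0.62 ± 0.07, adjusted p 1.42e-06) and after GC correction (0.53 ± 0.11, adjusted p 0.0293). Against Zbp1-/- it was 0.50 ± 0.11 (adjusted p 0.153), with 0.49 ± 0.08 (0.000126) and 0.39 ± 0.11 (0.0842) in the other fits. The interaction was 0.41 ± 0.16 (adjusted p 0.303), 0.39 ± 0.12 with the shared term (adjusted p 0.0344) and 0.18 ± 0.16 after GC correction (adjusted p 0.505). The single mutants differed from WT by smaller amounts, Tfam+/- by 0.09 ± 0.11 and Zbp1-/- by 0.12 ± 0.11 (adjusted p 0.671 and 0.526). Of the 10 macrophage and leukocyte markers, 7 were called lower in Tfam+/-Zbp1-/- than in Tfam+/-, where 5.64% of all genes were called in either direction. The sum of these 10 markers was lowest in Tfam+/-Zbp1-/- (2405 to 2428) and nearly as low in Zbp1-/- (2647 to 2969), where Nqo1 was at 494 and 500.2. The sums of epithelial, muscle and neural markers were also lowest in Tfam+/-Zbp1-/-. The part of these markers in the Nqo1 change was not tested.

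Hmox1 (chromosome 8, 75093618 to 75100593) had 1514 and 1484 normalized counts in WT libraries, 2063 and 1641 for Tfam+/-, 1642 and 2067 for Zbp1-/-, then 1546 and 1483 for Tfam+/-Zbp1-/-. All 4 single-mutant libraries were above the 4 WT and Tfam+/-Zbp1-/- libraries, also without the 2 that stand apart (1641 and 1642 against 1483 to 1546). The log2 change of Hmox1 in Tfam+/-Zbp1-/- against WT was 0.01 ± 0.16 (SE, adjusted p 0.986), with -0.10 under TMM scaling. Against Tfam+/- it was at -0.28 ± 0.16 (adjusted p 0.347), called with the shared term (-0.11 ± 0.04, adjusted p 0.039) and after GC correction (-0.29 ± 0.07, adjusted p 0.0223). In Zbp1-/- against WT the change was 0.30 ± 0.16 (adjusted p 0.324), called with the shared term (0.13 ± 0.04, adjusted p 0.0253) but not after GC correction (0.04 ± 0.07, adjusted p 0.769). In Tfam+/- against WT the 3 fits gave 0.30, 0.13 and 0.17 (adjusted p 0.559, 0.0522 and 0.25). From Zbp1-/- to Tfam+/-Zbp1-/- they gave -0.28, -0.12 and -0.16 (adjusted p 0.506, 0.061 and 0.212). Neither of these last 2 changes was called in any of the 3 fits. The interaction was -0.58 ± 0.22 (adjusted p 0.299), -0.25 ± 0.07 with the shared term (adjusted p 0.0166) and -0.33 ± 0.10 after GC correction (adjusted p 0.0908). Gsr and Hmox1 were the 2 of 10 genes for which Tfam+/- and WT, and also Tfam+/-Zbp1-/- and Zbp1-/-, did not overlap and differed in opposite directions, a pattern found in 17.6% of all genes tested.

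**Figure D3:**
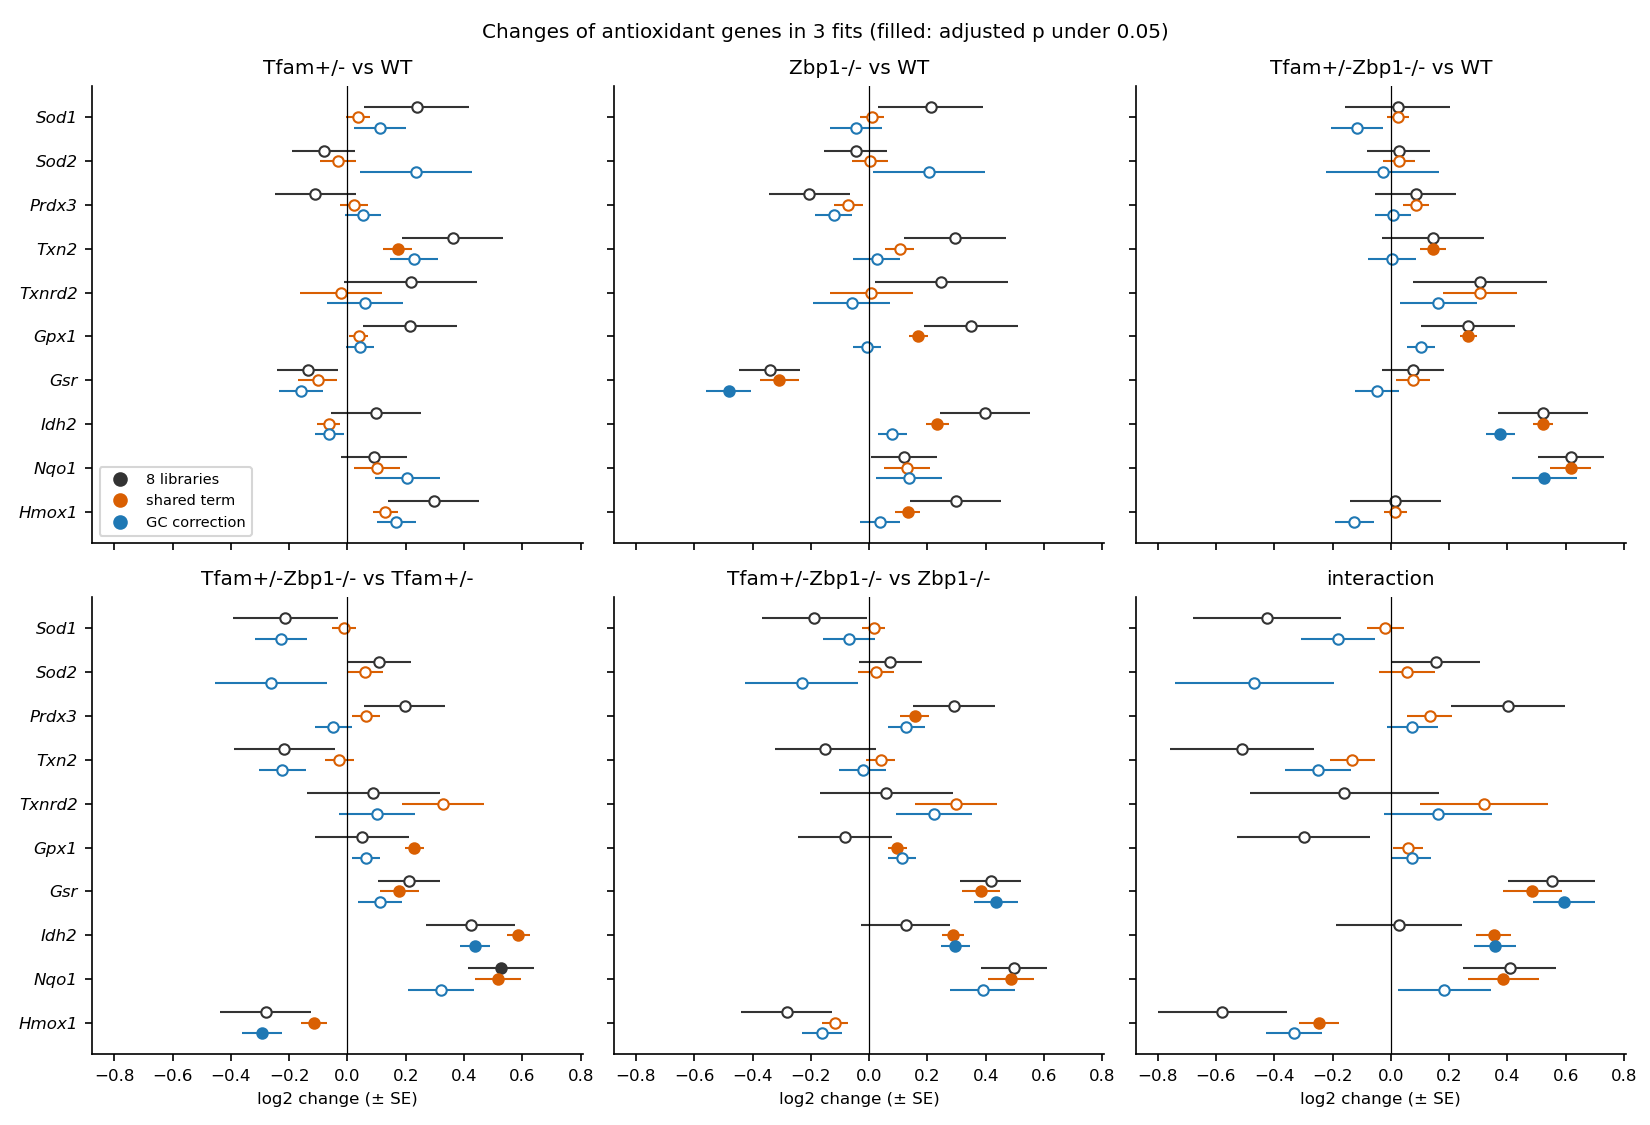
Log2 change with its SE (horizontal axis) of each gene in the 5 comparisons and the interaction, from all 8 libraries, with the shared term, and after GC correction, with filled points for an adjusted p under 0.05. Nqo1 in Tfam+/-Zbp1-/- against Tfam+/- is the only filled point of the fit of all 8 libraries, and Gsr and Idh2 are filled in both other fits in Tfam+/-Zbp1-/- against Zbp1-/- and for the interaction.

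Promoter sequence was examined because NRF2 binds antioxidant response elements. Windows of 250 bases before the annotated start (RefSeq, GRCm38.p6) were found for 8 of the 10 genes. Gsr and Hmox1 had no entry. The element's core, TGACNNNGC on either strand, occurred in 1 of the 8 windows, that of Sod1, and in 10.2% of the 32851 windows of all genes. The GC box GGGCGG, on either strand, occurred in 7 of the 8, all but Gpx1, and in 32.7% of all windows. The Idh2 window (chr7:80115351-80115600), 1 of the 7, precedes a start inside the span of the gene given above and not its outermost start. The windows of Nqo1, the gene with the clearest genotype pattern, and Sod1, the gene with the match, are shown 5′ to 3′ on the gene's strand, the minus strand for Nqo1 (chr8:107403206-107403455) and the plus strand for Sod1 (chr16:90220512-90220761). Capitals mark both motifs.
Nqo1: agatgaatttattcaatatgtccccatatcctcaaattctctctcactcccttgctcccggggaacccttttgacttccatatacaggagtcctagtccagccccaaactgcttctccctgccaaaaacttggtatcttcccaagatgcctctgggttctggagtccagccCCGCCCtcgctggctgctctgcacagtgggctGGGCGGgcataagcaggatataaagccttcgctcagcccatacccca
Sod1: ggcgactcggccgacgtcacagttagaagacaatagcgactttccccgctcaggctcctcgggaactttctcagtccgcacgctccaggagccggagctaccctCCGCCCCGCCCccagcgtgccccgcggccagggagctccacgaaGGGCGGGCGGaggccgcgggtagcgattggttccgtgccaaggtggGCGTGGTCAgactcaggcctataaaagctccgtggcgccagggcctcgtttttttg
In Sod1 the element's core lies 56 to 48 bases before the start on the minus strand, and its 4 GC boxes form 2 overlapping pairs, 1 on each strand. Nqo1 holds 2 GC boxes and no match to the element's core within these 250 bases. Sequence beyond the windows was not searched, so an element farther from the start would be missed. A match is a description of the letters and not a bound site.

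Levels can be set against each other only per length. Per 1000 bases of the longest annotated coding transcript, mean normalized counts over the 8 libraries were 3708 for Gpx1, 3469 for Sod1, 1323 for Idh2, 1071 for Hmox1, 949.7 for Prdx3, 808 for Txn2, 346 for Nqo1, 249.5 for Gsr, 132 for Sod2 and 46.0 for Txnrd2. Gpx1 and Sod1 overlapped over libraries (3141 to 4586 and 3145 to 4276), as did Idh2 and Hmox1 (1045 to 1611 and 945 to 1318). For Sod2 the transcript taken is 5861 bases long, and its value would be higher with a shorter form.

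Across the 8 libraries, log2 levels of Sod1 and Hmox1 correlated at r = 0.96 and those of Sod1 and Txn2 at 0.95, but without the 2 libraries that stand apart r was 0.37 and 0.49 over 6 libraries. Idh2 and Nqo1 went the other way, from 0.70 over 8 libraries to 0.92 over 6. The points share libraries, so these values describe the pattern only. The genes with the most similar log2 levels over the 8 libraries, named for the 3 members with the widest range of genotype means, were Nfyc, Slc6a6 and Sqor for Nqo1 (r = 0.96 for each). For Idh2 they were Angptl2, Cst3 and Ncdn (0.988 to 0.996), and for Gsr Dnajc9, Ltbp1 and Psat1 (0.96 each). Over all genes tested, 9, 79 and 5 other genes exceeded r = 0.95 with Nqo1, Idh2 and Gsr.

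The regulators of the NRF2 pathway and its other targets were examined as lists. Nfe2l2 (chromosome 2, 75675513 to 75704663) had 2098 and 2057 normalized counts in WT libraries, 1733 and 2096 for Tfam+/-, 2128 and 1753 for Zbp1-/-, then 2085 and 2062 for Tfam+/-Zbp1-/-. The 2 low values are the libraries that stand apart, and the other 6 lay within 2057 to 2128. Keap1 (chromosome 9, 21229730 to 21239332) had 879 and 886 normalized counts in WT libraries, 1025 and 808 for Tfam+/-, 1020.0 and 1201 for Zbp1-/-, then 956 and 1055 for Tfam+/-Zbp1-/-. It was not called with all 8 libraries (adjusted p 0.280 in Zbp1-/- against WT) and was called there with the shared term (0.18 ± 0.06, adjusted p 0.0231), but its change was -0.05 after GC correction. Keap1 was also called with this term in Tfam+/-Zbp1-/- against WT (0.19 ± 0.05, adjusted p 0.00905) and against Tfam+/- (0.29 ± 0.06, adjusted p 0.00077), where all 8 libraries gave adjusted p 0.681 and 0.603. Without Tfam+/- replicate 2 the last of these changes was -0.03. Of 9 regulators, limma called 0 in each of the 6 tests, with 1, 1, 0, 1, 0 and 2 at an unadjusted p under 0.05 (8.74%, 19.7%, 12.6%, 20.8%, 12.3% and 16% of all genes). Regulators called higher with the shared term were 2, 4, 1, 1, 0 and 0 of 9, or 22.2%, 44.4%, 11.1%, 11.1%, 0% and 0%, beside 7.39%, 28.5%, 35.3%, 35.4%, 12.8% and 8.46% of all genes. Those called lower were 0, 0, 0, 1, 2 and 3 of 9, or 0%, 0%, 0%, 11.1%, 22.2% and 33.3%, beside 8.2%, 7.01%, 7.19%, 10.2%, 11% and 8.43%.

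Of 27 other NRF2 targets, limma called 0 in each test, with 0, 6, 4, 3, 6 and 6 at an unadjusted p under 0.05. With the shared term, 9 were higher and 3 lower in Tfam+/-Zbp1-/- than in Tfam+/-. These are 33.3% and 11.1% of the list, beside 35.4% and 10.2% of all genes. Against WT 12 were higher (44.4%, beside 35.3% of all genes) and 2 lower (7.41%, beside 7.19%). Against Zbp1-/- 7 were higher (25.9%, beside 12.8%) and 5 lower (18.5%, beside 11%). In Tfam+/- against WT 4 were higher (14.8%, beside 7.39%) and 3 lower (11.1%, beside 8.2%), and in Zbp1-/- against WT 7 were higher (25.9%, beside 28.5%) and 3 lower (11.1%, beside 7.01%). The interaction was called above 0 for 5 (18.5%, beside 8.46%) and below 0 for 3 (11.1%, beside 8.43%). The NRF2 targets as a list thus moved in both directions, and their shares against Tfam+/- were near those of all genes. Their share of higher calls was above that of all genes in Tfam+/-Zbp1-/- against WT and against Zbp1-/-. It was also above in Tfam+/- against WT and for the interaction, and slightly below in Zbp1-/- against WT. Both subunits of glutamate-cysteine ligase, the rate-limiting enzyme of glutathione synthesis, were above the other 6 libraries in Tfam+/-Zbp1-/- (chosen after their values were seen). The same held for Txnrd1, Prdx1, Abcc4 and Ugdh of this list, and for 14.9% of all genes tested. Gclm was at 639 and 616 against 495 to 572, and Gclc at 561 and 550.3 against 408 to 533. Against Tfam+/- the log2 change was 0.27 ± 0.10 for Gclm (SE, adjusted p 0.203) and 0.25 ± 0.16 for Gclc (adjusted p 0.385), and with the shared term only that of Gclm was called (0.24 ± 0.07, adjusted p 0.00796). After GC correction the change of Gclm was -0.11 (adjusted p 0.761).

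Of 11 other mitochondrial antioxidant genes, limma called 1, Nnt, in Zbp1-/- against WT and again in Tfam+/-Zbp1-/- against Tfam+/-, and 0 in the other 4 tests (0, 2, 2 and 3 at an unadjusted p under 0.05). With the shared term 6 of 11 were higher in Tfam+/-Zbp1-/- than in WT and 6 than in Tfam+/- (54.5% each, beside 35.3% and 35.4% of all genes), and 0 were lower. Against Zbp1-/- 2 were higher (18.2%, beside 12.8%) and 3, Nnt, Mgst1 and Gstk1, were lower (27.3%, beside 11%). In Zbp1-/- against WT 4 were higher (36.4%, beside 28.5%) and 0 lower. In Tfam+/- against WT 0 were higher and 1 lower (9.09%, beside 8.2%), and the interaction was above 0 for 1 and below 0 for 1 (9.09% each, beside 8.46% and 8.43%). Of 12 cytosolic, peroxisomal and secreted antioxidant genes, 1 was called, in Tfam+/-Zbp1-/- against Zbp1-/-, and 0 in the other tests (1, 1, 2, 3, 2 and 2 over the 6 tests at an unadjusted p under 0.05). It was Gpx3 (chromosome 11, 54902854 to 54910387), the secreted glutathione peroxidase, which had 621 and 586 normalized counts in WT libraries, 522 and 473 for Tfam+/-, 776 and 942 for Zbp1-/-, then 436 and 414 for Tfam+/-Zbp1-/-. The 2 Zbp1-/- libraries were highest and the 2 Tfam+/-Zbp1-/- libraries lowest, without overlap. Gpx3 fell by 1.01 ± 0.13 on the log2 scale (SE, adjusted p 0.0461), and by 0.90 ± 0.07 with the shared term (adjusted p 2.23e-08). Without each single library in turn its adjusted p was 0.0464 to 0.517. The call was lost without either library of WT, Zbp1-/- or Tfam+/-Zbp1-/-.

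**Figure D4:**
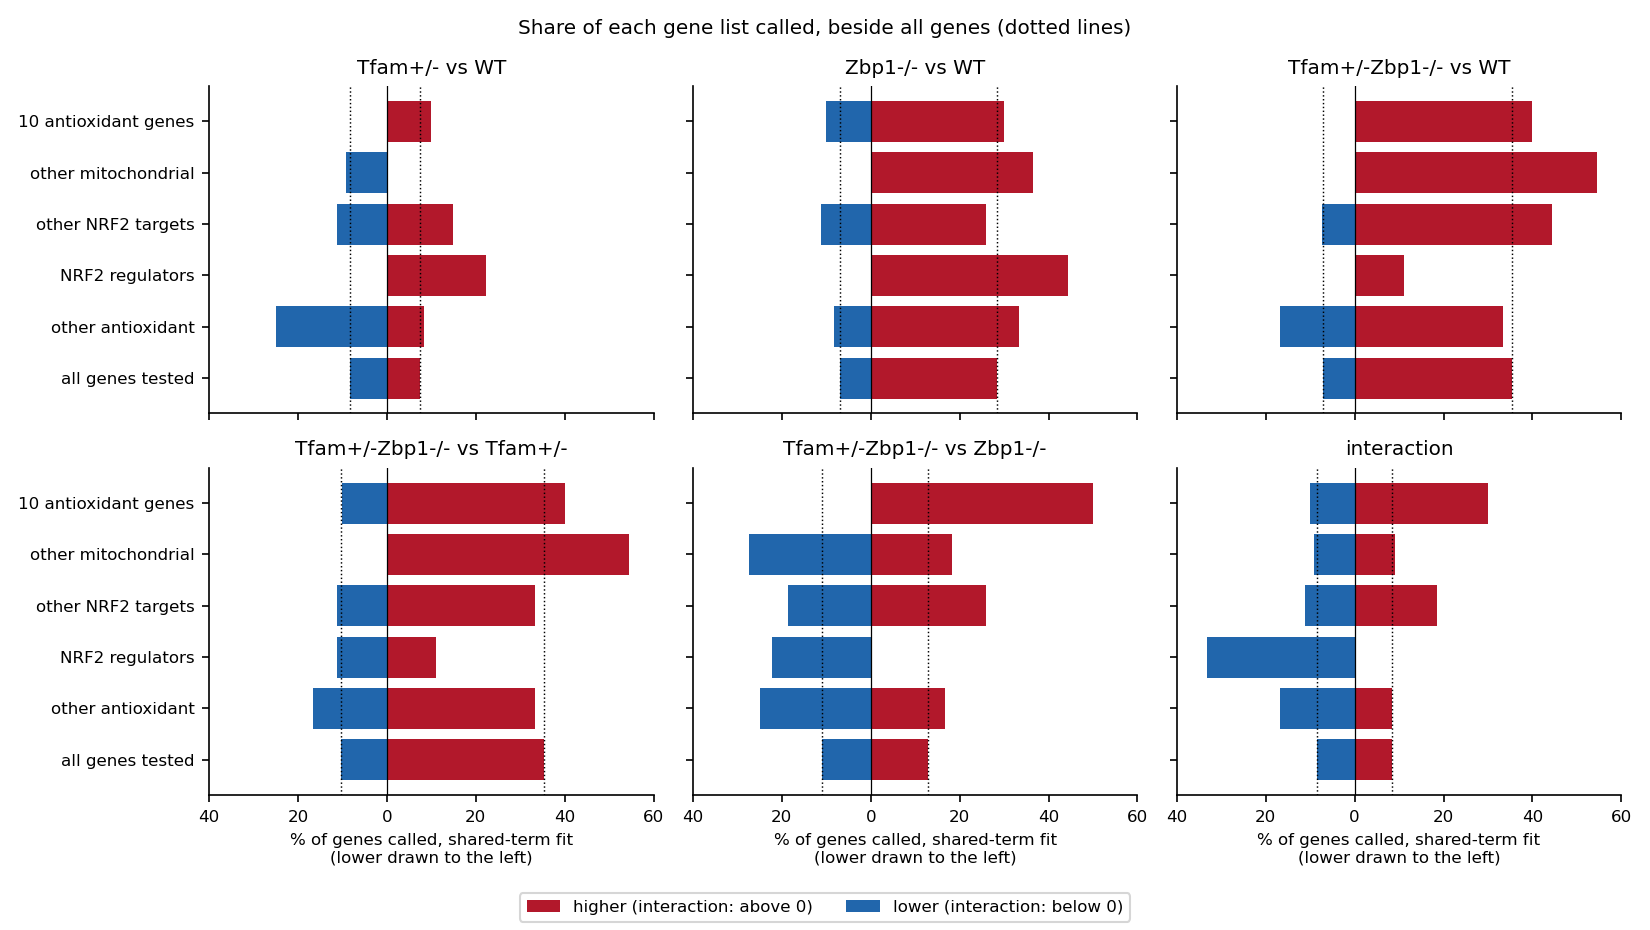
Percent of each list called with the shared term (horizontal axis, higher to the right and lower to the left) in the 5 comparisons and the interaction, with dotted lines at the share of all genes tested. In Tfam+/-Zbp1-/- against Tfam+/- the 27 other NRF2 targets (33.3% higher, 11.1% lower) lie near all genes (35.4% and 10.2%). Against Zbp1-/- they lie above all genes (25.9% higher and 18.5% lower, beside 12.8% and 11%).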

How the data were processed

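RNA sequencing measured transcript levels in 8 libraries, placed in 4 genotypes by their titles. Alignment to mm10 (RefSeq) used STAR within Illumina's BaseSpace, per the design text the authors gave. The submitters' processing notes name STAR 2.6.1a and Salmon, without their roles. The authors deposited 1 table of normalized counts, treated here as a non-negative signal because its values are mostly fractional. No source used here states the counting, its use of strand or the scaling, so overlapping genes and near-identical copies are uncertain. Among values up to 20 times the most repeated value of a library, 22.2% to 34.9% lay within 0.01 of a whole multiple. Whole reads were therefore not recovered, read depth is unknown, and no count model was run.

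limma 3.58.1 in R 4.3.3 fitted log2(normalized count + 1) for genes with a mean of at least 10 (lmFit, eBayes with trend, all 4 genotypes without covariates, with 4 residual degrees of freedom and 2.77 from the prior). Fold changes on this scale understate changes of low genes. Tests were two-sided, adjusted by Benjamini-Hochberg over 13267 genes and called under 0.05. The smallest p an exact permutation test could give for 2 against 2 libraries is 0.333. The procedure was tested on simulated data, with noise drawn separately for each library and no shift shared between libraries.

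The shared term is an added column for Tfam+/- replicate 1 and Zbp1-/- replicate 2 (3 residual and 15.09 prior degrees of freedom). GC correction subtracted, in each library, a spline of 5 degrees of freedom in GC content of the longest GENCODE M21 coding transcript, for 12733 genes matched by symbol (96%). It also removes differences between genotypes that follow GC content, and it recentres each library. The effect was also examined of a pseudocount of 5 or 0.1, of testing every gene above 0 or only those averaging 50, of TMM scaling computed in R (trimmed mean of M-values), of a prior without trend, of fitting only the genotypes compared, of a replicate block and of omitting single libraries. The members and lists were chosen with earlier results of these data known. Named genes were the 10 members, Tfam, Zbp1, Nfe2l2, Keap1 and Nnt, up to 4 called genes per list and comparison, and for 3 members the 3 genes of most similar level.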

Additional observations from a re-analysis of the deposited data

Results flagged for a closer look

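For 2 of the 10 genes the change with Tfam+/- went in opposite directions with and without Zbp1 in every library, as it did for 17.6% of all genes tested. Gsr was lower in both Tfam+/- libraries than in WT and higher in both Tfam+/-Zbp1-/- libraries than in Zbp1-/-. The former change was not called with all 8 libraries, the shared term or GC correction (limma, adjusted p 0.566, 0.346 and 0.315). The latter was called with the shared term and after GC correction only. The test of the difference, the interaction, gave a log2 value of 0.55 and did not pass with all 8 libraries (limma, adjusted p 0.184), but passed with the shared term (0.49, adjusted p 0.00242) and after GC correction (0.59, adjusted p 0.0192). Hmox1 went the other way, but neither of its changes was called in any of these fits (limma, adjusted p 0.0522 to 0.559). It was higher in both Tfam+/- libraries than in WT and lower in both Tfam+/-Zbp1-/- libraries than in Zbp1-/-. Its interaction was -0.58 (adjusted p 0.299), and -0.25 (adjusted p 0.0166) and -0.33 (adjusted p 0.0908) in those fits. The values of both genes in each library stand in the results above.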

How the results depend on the processing

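With 2 libraries per genotype the calls of single members depended on the fit, which changed the estimates as well as their spread. The Idh2 interaction, for example, was 0.03 with all 8 libraries and 0.35 with the shared term. The cause was not tested. The count of members called was 0 or 1 with all 8 libraries. With the shared term it was 1 in Tfam+/- against WT, 4 in Zbp1-/- against WT, 4 in Tfam+/-Zbp1-/- against WT, 5 against Tfam+/-, 5 against Zbp1-/- and 4 for the interaction. In the other 6 libraries it was 5 in Zbp1-/- against WT, 4 in Tfam+/-Zbp1-/- against WT, 5 against Tfam+/-, 4 against Zbp1-/- and 4 for the interaction. After GC correction it was 1, 2, 2, 2 and 2 in these 5 tests. Fitting only Tfam+/-Zbp1-/- and WT called 4 members and 5935 of all genes. The 1 call in Tfam+/-Zbp1-/- against Tfam+/- (Nqo1) became 0 with no filter, with a prior without trend, under TMM scaling, and with only the genotypes compared. It became 0 without any 1 library, and the other 5 counts were 0 throughout (range 0 to 0 in all 6). With the replicate number as a block it also became 0 (Nqo1 0.53, adjusted p 0.125). The block also ended the calls of Nnt (adjusted p 0.0956 and 0.0729) and Gpx3 (adjusted p 0.212). The replicate numbers did not pair the libraries, since correlations of replicate differences between genotypes were -0.70 to 0.06.

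Of the named changes, Gpx1 turned to -0.008 in Zbp1-/- against WT after GC correction, and in Tfam+/-Zbp1-/- against Tfam+/- from 0.05 to -0.071 under TMM scaling and over -0.129 to 0.23 without single libraries. Idh2 ranged over -0.036 to 0.29 in Tfam+/-Zbp1-/- against Zbp1-/- and -0.137 to 0.19 for the interaction when single libraries were left out. Hmox1 in Tfam+/-Zbp1-/- against WT was -0.101 under TMM scaling, -0.125 after GC correction and -0.015 to 0.045 without single libraries. Keap1 was -0.046 in Zbp1-/- against WT and Gclm -0.111 in Tfam+/-Zbp1-/- against Tfam+/- after GC correction, and Keap1 ranged over -0.029 to 0.313 in the latter comparison without single libraries. Fitting only the genotypes compared called Idh2 in Tfam+/-Zbp1-/- against WT (0.52, adjusted p 1.7e-09), among 5935 of all 13267 genes tested. Counts over all genes moved far more than 1.5 times, for Tfam+/-Zbp1-/- against WT from 183 to 5634 with the shared term and 8 with the block. TMM scaling moved the share of higher calls from 84.4% to 73.3% in Zbp1-/- against WT, from 65.0% to 47.9% in Tfam+/-Zbp1-/- against WT and from 58.8% to 42.9% against Tfam+/-. Read depth is unknown, so no limit from counting error can be given.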
